A study of Coturnix japonica and Phalacrocorax auritus with 29 samples.

Results

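The CYP2C features described here are lines of the 2 deposited count tables whose protein name is one of 4 CYP2C cytochromes P450. They are cytochrome_p450_2c19 (CYP2C19 below), cytochrome_p450_2c19_like (CYP2C19-like), cytochrome_p450_family_2_subfamily_c_member_18 (CYP2C18) and cytochrome_p450,_family_2,_subfamily_c,_polypeptide_23b (CYP2C23B). Names were matched exactly, with no measured value used in the matching, although the features were chosen with earlier results of these data known. The match gave 4 of the 22845 features of Japanese quail (JQ) and 2 of the 21547 features of double-crested cormorant (DCCO). CYP2C18 and CYP2C23B have no line in the DCCO counts.

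The study compared embryonic livers of the 2 birds after chlorpyrifos, an organophosphate insecticide, had been injected into the air cell of the egg before incubation. There were 5 livers per group in JQ (control, medium dose, high dose), and 4 control, 5 medium dose and 5 high dose livers in DCCO, each from a different embryo and with its own library. Controls received DMSO, the solvent that every exposed egg also received. The nominal doses given for both species are 0.4, 4 and 40 µg per g of egg; the labels do not say which of these is medium or high, and state that the high dose was set from mortality data of each species, so equal group names need not mean equal doses. Embryos are labelled day 9 in JQ, except control replicate 5 (day 16), and day 16 in DCCO.

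CYP2C enzymes are heme monooxygenases of the endoplasmic reticulum, most abundant in hepatocytes. In mammals they oxidise drugs and steroids, turn arachidonic acid into epoxides, and are induced by foreign compounds through the nuclear receptors CAR and PXR, while the chicken has a single xenobiotic receptor related to both. Chlorpyrifos is itself a P450 substrate: one route gives the oxon that inhibits acetylcholinesterase, another cleaves the molecule to trichloropyridinol, and human CYP2C19 favours the cleavage. The feature names come from the closest known bird proteins, and a name such as CYP2C19 does not make a bird gene the counterpart of the human gene.

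Libraries held 11548222 to 27778954 counts in JQ and 9890108 to 21976904 in DCCO. All 15 hepatocyte markers were detected in both species. The summed hepatocyte markers were lower at the JQ high dose (138676 to 214180 CPM, counts scaled to library depth) than in JQ controls (236620 to 266693 CPM). Albumin was the largest part of this sum, at 74900 to 130000 CPM at the high dose and 136000 to 176000 CPM in controls. Of the 15 markers, 1 was called lower and 0 higher, beside 215 of 14927 features tested called lower. Other markers did not follow the sum. APOA1 ran the other way, at 11500 to 14900 CPM against 8010 to 10000 CPM in controls. HNF4A ran higher with overlap, at 32.3 to 89.7 CPM against 23.6 to 43.1 CPM. For APOB, RBP4 and SERPINC1 the high dose livers spanned the control range. Summed bile duct markers ran from 243 to 424 CPM in high dose livers and from 178 to 244 CPM in control livers. Kidney markers summed to 2464 CPM in JQ high replicate 1, against 33.2 to 97.5 CPM in the other JQ libraries. The 8 gut markers found in JQ summed to 17.3 to 97.3 CPM at the high dose, 15.5 to 48.5 CPM at the medium dose and 6.89 to 24.1 CPM in controls. The highest sum was in high replicate 5, where FABP2 alone gave 92.6 CPM and CDH17 2.27 CPM. Of the 5 gut markers that could be tested, 0 were called at the high dose. The part of these markers in the CYP2C values was not tested; values without the libraries concerned stand beside the results.

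In JQ, CYP2C19, CYP2C19-like and CYP2C18 rose at the high dose, and CYP2C23B was read there and almost nowhere else. At the medium dose none of CYP2C19, CYP2C19-like and CYP2C18 was called. Together the 4 features took 0.043% to 0.0841% of all counts in high dose livers, against 0.000972% to 0.00344% in control livers. In DCCO neither of the 2 analysed features was called at either dose, and they took 0.00507% to 0.00809% of the counts at the high dose against 0.00431% to 0.00889% in controls. In whole livers, a change in the share of cells that carry a transcript and a change in the amount per cell cannot be told apart.

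CYP2C19 and CYP2C19-like are named after the human enzyme of omeprazole and mephenytoin oxidation. The TMM-normalised levels of CYP2C19 were 2.90, 0.838, 5.92, 5.82 and 3.46 CPM in controls, 1.41, 7.69, 2.28, 2.90 and 5.32 CPM at the medium dose, and 116, 121, 141, 136 and 87.5 CPM at the high dose. CYP2C19-like measured 8.53, 5.22, 9.71, 14.96 and 9.44 CPM in controls, 3.77, 23.6, 6.25, 8.27 and 14.04 CPM at the medium dose, and 245, 337, 395, 366 and 151 CPM at the high dose. For both names the lowest high dose liver was several times above the highest liver of the other groups. The log2 fold changes of high dose over control were 5.00 ± 0.48 for CYP2C19 and 4.96 ± 0.48 for CYP2C19-like, and both had an adjusted p of 3.75e-05. Tests here are quasi-likelihood tests in edgeR; p-values were adjusted by the Benjamini-Hochberg method over all 14927 features tested in JQ, and a feature is called at an adjusted p under 0.05.

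CYP2C18, named after a human enzyme with little protein in liver, followed the same pattern. Its levels were 6.31, 3.42, 8.74, 14.8 and 6.53 CPM in controls, 3.19, 15.9, 3.71, 7.46 and 11.6 CPM at the medium dose, and 210, 253, 284, 283 and 145 CPM at the high dose. High dose livers stood apart from all others, and the medium dose livers covered the range of the controls. The log2 fold change of high dose over control was 4.89 ± 0.48, with an adjusted p of 3.88e-05 by edgeR.

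CYP2C23B was near or at the detection limit outside the high dose. It shares its name with the chicken gene CYP2C23b; in the rat, CYP2C23 is an arachidonic acid epoxygenase of the kidney. CYP2C23B had 1, 1, 0, 1 and 0 reads in the control livers, 1, 2, 1, 2 and 0 reads at the medium dose, and 822, 566, 1249, 1502 and 1192 reads at the high dose. The high dose reads equal 35.0, 31.9, 59.6, 64.4 and 44.9 CPM, with a mean of 47.2 ± 14.5 CPM (SD, n = 5). Per unit of depth, high dose livers held 1363 times the reads of controls (5331 against 3 reads, 95% exact counting interval 466 to 6611) and 757 times those of medium dose livers (5331 against 6 reads, interval 348 to 2064). These intervals cover counting error only: the reads were pooled over the livers of a group, and the spread between livers is left out. Reads made by PCR are not independent molecules, so the counting error itself may be larger.

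CYP2C23B passed the filter on low counts only through the high dose group, in which all 5 livers passed, while no control or medium dose liver did, so it could enter the test only by differing, and its fitted values and calls are a description. The other 3 features passed in all 15 JQ livers. No medium to control ratio is given for CYP2C23B, since no library of either group exceeded 2 reads.

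**Figure D1:**
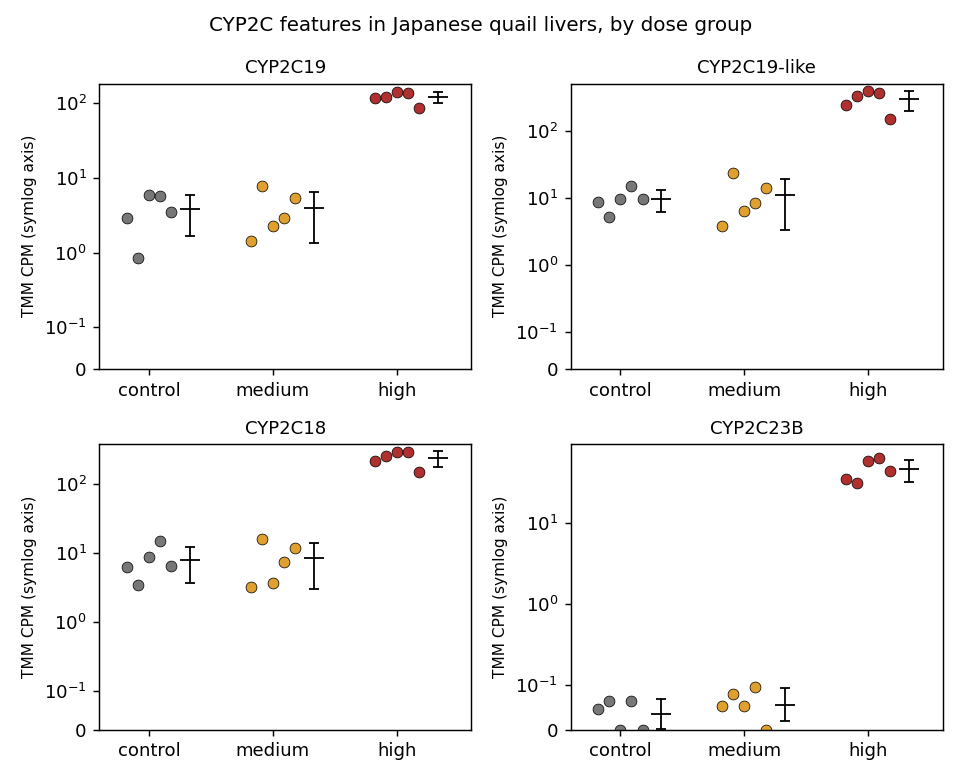
TMM-normalised CPM of the 4 CYP2C features in each JQ liver (points; vertical axis linear below 0.1 CPM and logarithmic above) in the control, medium and high dose groups, with the mean and SD over 5 livers as a bar beside each group. All high dose livers lie above all others in every panel. CYP2C23B, which entered only through the high dose group, is at or near 0 outside it.

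Against this, 316 of the 14927 features tested in JQ were called higher at the high dose, or 2.12%, and 531 were called in either direction, or 3.56%. In 2.7% of the features tested every high dose liver was above every control liver, which held for CYP2C19, CYP2C19-like and CYP2C18. The median log2 fold change over these 3 features was 4.96, and over all features tested it was 0.01. Without control replicate 5, labelled day 16, their log2 fold changes were 4.82 to 4.97, and the highest edgeR adjusted p was 3.35e-04. Without high replicates 1 and 5, the livers with the highest kidney and the highest gut marker sum, they were 5.10 to 5.26 and all 3 were called; this fit was chosen after seeing the data.

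The medium dose in JQ gave no call of CYP2C19, CYP2C19-like or CYP2C18, beside 0% of all features. Of all features edgeR called 0 of 14927 and limma voom 0, DESeq2 called 6, and before adjustment 646 had an edgeR p under 0.05. The smallest unadjusted p among CYP2C19, CYP2C19-like and CYP2C18 was 0.599. The log2 fold changes of medium dose over control were 0.06 for CYP2C19 (95% interval -0.91 to 1.02), 0.23 for CYP2C19-like (-0.68 to 1.13) and 0.07 for CYP2C18 (-0.84 to 0.99). Changes inside these intervals remain compatible with the values. The intervals are not adjusted for the number of features, so a change somewhat outside them could also have gone uncalled. Control replicates 3 and 4 and medium replicates 2 and 5 held the highest values of CYP2C19, CYP2C19-like and CYP2C18 in their groups.

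High dose livers also exceeded medium dose livers, with which the comparison to controls shares the high dose samples. The 3 features that passed the filter in every group were called, at log2 fold changes of 4.74 ± 0.47 (CYP2C19-like), 4.81 ± 0.48 (CYP2C18) and 4.94 ± 0.48 (CYP2C19), the highest edgeR adjusted p being 5.3e-05. Of all features, 282 were called in this comparison (1.89%), 206 of them higher (1.38%). Every high dose liver was above every medium dose liver for these 3 features and for 1.78% of all features.

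**Figure D2:**
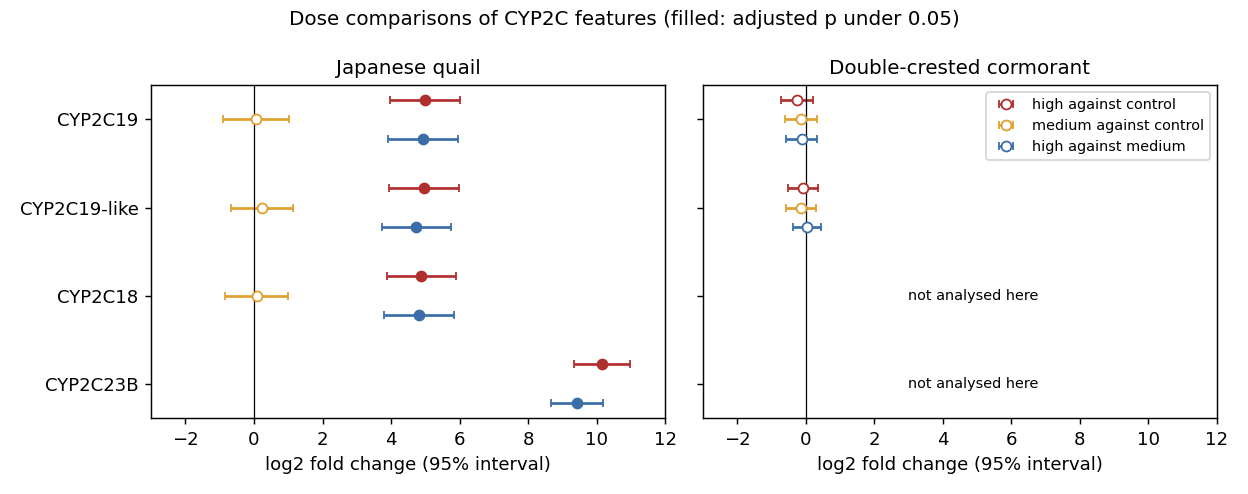
Log2 fold changes with fitted 95% intervals of each CYP2C feature in JQ and DCCO for the 3 dose comparisons, filled where the adjusted p is under 0.05. The intervals drawn for CYP2C23B are narrower than its counting intervals, which already leave out the spread between livers. They do not hold as 95% intervals. In JQ every high dose comparison is filled and lies near 5, except CYP2C23B near 10, which entered only through the high dose group; CYP2C23B has no point for the medium dose against control, and all DCCO points lie near 0.

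In JQ, CYP2C19, CYP2C19-like and CYP2C18 moved together from liver to liver also within groups. In controls, CYP2C19-like and CYP2C18 shared the order of livers from highest to lowest: replicates 4, 3, 5, 1 and 2. CYP2C19 had the order 3, 4, 5, 1 and 2 there. In medium dose livers all 3 names shared the order 2, 5, 4, 3 and 1. At the high dose all 3 names shared the order 3, 4, 2, 1 and 5, whereas for CYP2C23B replicate 5 was in the middle and replicate 2 lowest. Counting by protein name may divide the reads of near-identical copies between names, so the value of a single name is uncertain. The part of such divided reads in the shared orders was not tested.

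The summed level of the 4 names was 21.4 ± 9.62 CPM in control, 23.5 ± 15.8 CPM in medium dose and 701 ± 186 CPM in high dose livers (SD, n = 5 each). Relative to the mean, the spread was 45.0% in controls, 67.1% at the medium dose and 26.6% at the high dose. The high dose mean was 32.8 times the control mean; this sum is given as a description. The shares below are of the reads under these 4 names, with no account of transcript length. CYP2C19-like held 41.8 ± 4.2% at the high dose and 46.6 ± 5.90% in controls, CYP2C18 33.6 ± 0.901% and 36.5 ± 3.0%, and CYP2C19 17.6 ± 2.08% and 16.7 ± 5.52%. CYP2C23B held 6.98 ± 2.31% at the high dose, against 0.222 ± 0.277% in controls. It passed the filter only through the high dose group, so its larger share there was set in advance and is a description.

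**Figure D3:**
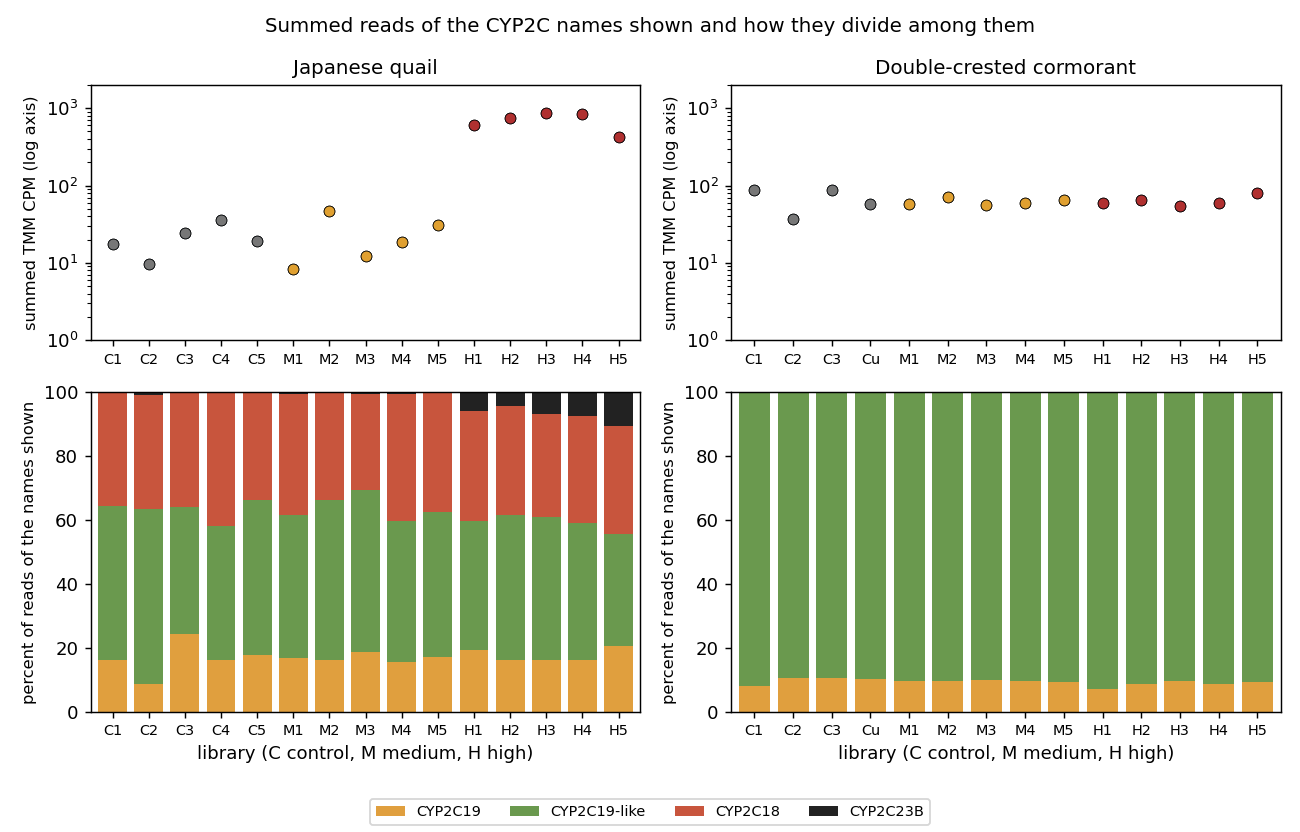
Top, summed TMM-normalised CPM of the CYP2C features described in each library (logarithmic axis); bottom, the percent of their reads under each name. The 5 JQ high dose livers stand between 428 and 880.0 CPM, above all other livers. CYP2C23B, which entered only through the high dose group, holds 4.3% to 10.5% of the reads in these livers, against at most 0.676% in the other JQ livers.

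In DCCO the 2 names analysed were CYP2C19-like and CYP2C19. CYP2C19-like measured 80.7, 32.8, 78.9 and 51.3 CPM in controls, the last in the control with no replicate number, 51.6, 64.4, 50.7, 53.5 and 59.5 CPM at the medium dose, and 55.7, 59.0, 48.5, 53.9 and 72.3 CPM at the high dose. Both exposed groups lay inside the range of the controls. Of the reads under the 2 names it held 91.3 ± 0.987% at the high dose and 90.2 ± 1.14% in controls.

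The scarcer CYP2C19 overlapped between the DCCO groups too. It measured 7.15, 3.85, 9.21 and 5.86 CPM in controls, 5.55, 6.87, 5.48, 5.71 and 6.12 CPM at the medium dose, and 4.25, 5.67, 5.15, 5.05 and 7.48 CPM at the high dose. Control replicate 2 was the lowest control and high dose replicate 5 the highest high dose liver for both names. That control also held the lowest summed hepatocyte markers of the DCCO livers (141100 CPM, others 143800 to 187900 CPM) and the highest kidney markers (337 CPM, others 58.4 to 118 CPM).

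**Figure D4:**
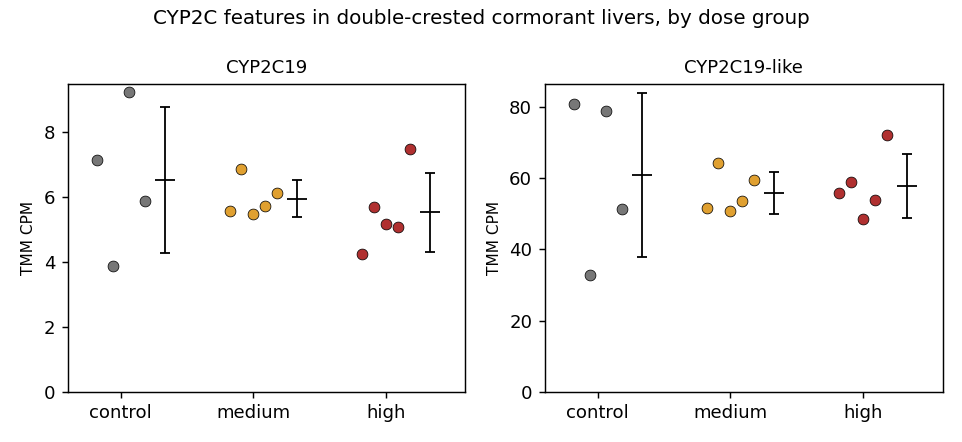
TMM-normalised CPM of the 2 CYP2C features analysed in each DCCO liver (points, linear axes from 0) by dose group, with the mean and SD as a bar beside each group of 4 control, 5 medium dose and 5 high dose livers. The groups overlap in both panels, and 1 control is the lowest of its group for both names.

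The log2 fold changes of high dose over control in DCCO were -0.25 for CYP2C19 (95% interval -0.72 to 0.22) and -0.08 for CYP2C19-like (-0.51 to 0.36), neither called by edgeR. Of all 14579 features tested in DCCO, 0.0343% were called at this dose. The medium dose over control gave -0.14 and -0.12 in the same order of names, neither called beside 0.048% of all features. High over medium dose gave -0.11 and 0.05, neither called beside 0% of all features, where limma voom called 0, DESeq2 called 4, and before adjustment 475 features had an edgeR p under 0.05. The smallest unadjusted p of a CYP2C feature in these 3 comparisons was 0.271. All controls carry one column prefix and all exposed livers another, so that prefix and exposure cannot be told apart in DCCO.

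The species difference was tested on the 2 names analysed in both, in 1 fit of all 29 libraries over 15596 shared names. The high dose effect in JQ minus that in DCCO was 5.25 ± 0.52 (log2, SE) for CYP2C19 and 5.04 ± 0.51 for CYP2C19-like. Both were called by edgeR (highest adjusted p 6.62e-07), beside 0.757% of all features called in this direction. Species, embryo day and the dose behind the name high go together here and cannot be told apart.

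Among the features of JQ outside the CYP2C names, the closest in pattern over the 15 livers was ALAS1, which encodes the first enzyme of heme synthesis. Likeness was the root mean square difference of centred log2 CPM, among 623 features with a range over group means of at least 1. ALAS1 was nearest to CYP2C19-like, CYP2C18 and CYP2C19, at 0.821, 0.841 and 0.891, and averaged 2298 ± 674 CPM in high dose livers, against 116 ± 32.8 CPM in control livers. TPPP, a tubulin-binding protein, came second for these 3, at 1.14 to 1.18, and cytochrome_p450_3a9_like came next, at 1.15 to 1.21. CYP2C23B lay nearest to cytochrome_p450_2h2 (1.15), cytochrome_p450_3a37 (1.44) and cytochrome_p450_3a9_like (1.45). CYP2C23B held at most 2 reads per liver outside the high dose, and candidates had to differ between groups. That its nearest features were others with a large high dose rise was thus set in advance. The same holds for the other 3 names, whose group means spanned 4.95 to 5.2 log2 units. All these distances are a description.

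In DCCO the nearest features were others, at distances of 0.116 to 0.175 over 14 livers. Among 13335 features, CYP2C19-like lay nearest to TERB2 of meiotic telomeres, a GRK5-like receptor kinase and HADHB of mitochondrial fatty acid oxidation. CYP2C19 lay nearest to the LIM protein FHL3, the tetraspanin TSPAN15 and the sorbitol dehydrogenase SORD.

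Of the other P450 features of families 1, 2 and 3, 33 could be tested in JQ, of which cytochrome_p450_1a4_like and cytochrome_p450_3a8 would not have passed the filter without the high dose livers. Of the other 31, 14 rose and 0 fell at the high dose, beside 2.12% of all features called higher. The smallest p-values belonged to CYP2H1-like (log2 fold change 12.12 ± 0.66), CYP2H2 (10.44 ± 0.59), CYP2H1 (11.02 ± 0.73) and CYP3A37 (6.13 ± 0.63); CYP2H1 is the classical phenobarbital-inducible P450 of chicken liver. Names of the CYP1A and CYP2W subfamilies and cytochrome_p450_3a9_like (6.13 ± 0.71) were called higher too. Among them were CYP1A5 (2.62 ± 0.29), CYP1A4 (2.52 ± 0.29) and CYP2W1 (1.45 ± 0.24). CYP2 names of the AC, D, G, J, K and U subfamilies, CYP1B1 and cytochrome_p450_3a12_like were not called. The median of the 31 was 0.38, against 0.01 over all features. In DCCO 0 of 32 were called at the high dose over control, beside 0.0343% of all features called in either direction. Their median was 0.40, against -0.01 over all features.

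P450s draw electrons from POR and cytochrome b5, and 4 of 9 electron donor features rose at the JQ high dose with 0 lower, beside 2.12% of all features called higher. PGRMC1, a heme-binding partner of P450s, averaged 247 ± 38.5 CPM in high dose livers, against 105 ± 5.37 CPM in control livers (log2 fold change 1.23 ± 0.13). Cytochrome b5 averaged 1136 ± 152 CPM and 438 ± 44.5 CPM (1.38 ± 0.15), and the 2 POR names, cytochrome_p450_oxidoreductase and nadph_cytochrome_p450_reductase, rose by log2 0.71 ± 0.12 and 0.59 ± 0.11. The median of the list was 0.42, against 0.01 over all features. In DCCO 0 of 8 donors were called at the high dose, beside 0.0343% of all features called in either direction. Their median was -0.09, against -0.01 over all features.

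Heme supply was called at 2 of 12 features, beside 3.56% of all features called in either direction. ALAS1 rose by log2 4.30 ± 0.25 (adjusted p 7.4e-08 by edgeR) and HMOX1, which degrades heme, by 0.58 ± 0.14 (adjusted p 0.0407), while the 6 enzymes from ALAD to PPOX and ferrochelatase had values of -0.27 to 0.22 that were not called. The median of the list was 0.07, against 0.01 over all features. In the comparison of high with medium dose 1 of the 12 was called, beside 1.89% of all features. Of 13 nuclear receptors and partners, edgeR called 1 higher at the JQ high dose against medium dose, beside 1.38% of all features. Against control it called 0 of the 13, beside 3.56% of all features called in either direction, with a median of -0.15. The smallest p-values against control were those of NR1H4, the bile acid receptor FXR (-0.54 ± 0.16, adjusted p 0.0794), and HNF4A, a hepatocyte regulator (0.74 ± 0.23, adjusted p 0.1). The receptor transcript NR1I3 averaged 5.81 ± 1.41 CPM in high dose and 6.74 ± 1.85 CPM in control livers (-0.21 ± 0.31).

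Arachidonic acid is a substrate of mammalian CYP2C enzymes, and 2 of 15 features of its oxidation and of epoxide removal rose at the JQ high dose, beside 2.12% of all features called higher; the prostaglandin synthase PTGES, also tested but not called, would not have passed the filter without the high dose livers. HPGDS, a prostaglandin D synthase and glutathione transferase, averaged 237 ± 72.9 CPM in high dose livers, against 32.5 ± 23.8 CPM in control livers (log2 fold change 2.87 ± 0.52), and ALOX5, which starts leukotriene synthesis, 10.4 ± 9.30 CPM and 2.25 ± 1.15 CPM (2.20 ± 0.50). The epoxide hydrolases EPHX1 and EPHX2, which remove CYP2C epoxides, had log2 values of -0.02 and -0.11, neither of them called. The median of the 15 was 0.07, against 0.01 over all features. In DCCO 0 of 12 heme, 0 of 14 receptor and 0 of 19 arachidonic acid features were called by edgeR at the high dose. Of all features 0.0343% were called there in either direction. The medians of these lists were 0.04, 0.19 and -0.07, against -0.01 over all features.

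**Figure D5:**
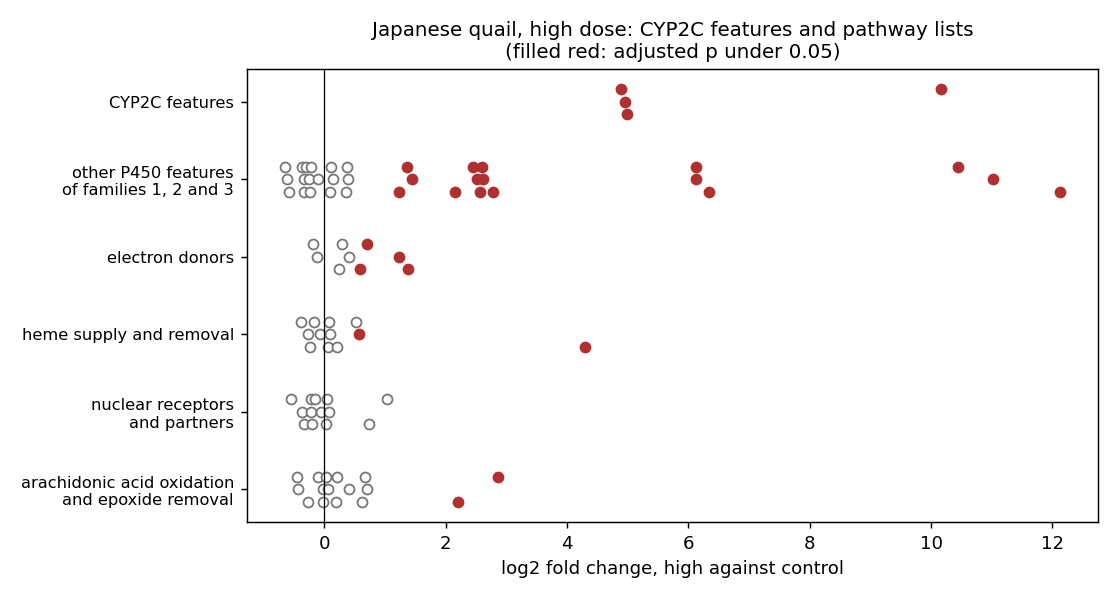
Log2 fold change of high dose over control in JQ for the 4 CYP2C features described and each tested member of the pathway lists, filled red where the adjusted p is under 0.05. CYP2C19, CYP2C19-like and CYP2C18 lie between 4.89 and 5.00, and CYP2C23B, which entered only through the high dose group, at 10.16. Beyond them, only P450 features and ALAS1 exceed 4 among the lists shown. Of these P450 features, cytochrome_p450_3a8 (6.35) also entered only through the high dose group, as did cytochrome_p450_1a4_like (2.16). Their filled points are a description.

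Further lines carry other CYP2C names. In JQ cytochrome_p450_2c20_like had 60 reads over the high dose livers and 2 over the controls, too few to be tested. Also untested in JQ were cytochrome_p450_2c23_like, cytochrome_p450_2c31, cytochrome_p450_2c8_like and cytochrome_p450_2c5_like. They had 12, 6, 4 and 1 reads over the high dose livers and 0 over the controls. In DCCO cytochrome_p450_2c5_like and cytochrome_p450_2c8_like could be tested, with log2 fold changes of high dose over control of -0.89 and -0.24, neither called by edgeR (adjusted p of 1 each).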

How the data were processed

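RNA of single embryonic livers was sequenced as paired reads of 101 bases, per the labels' protocols. The authors deposited raw counts as 1 table for each species, in which a line stands for a protein name; the tables' name says Seq2Fun, and the sources used here do not give its settings. edgeR is named in the submitters' processing notes. No genome build applies, and sequences of the CYP2C features were not used here.

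These counts were scaled by TMM and filtered by filterByExpr (10 counts or more at median depth in at least 5 JQ or 4 DCCO libraries, 15 or more in all), then tested by robust quasi-likelihood in edgeR 4.0.16 (R 4.3.3), with all groups of a species in 1 fit. SE is the log2 fold change over the square root of F. CPM means are given with SD. Columns marked S were taken as the solvent controls, and 1 DCCO control has no labelled number. p-values set a group difference against the spread between these embryos, estimated over all groups of a species and moderated across features. Alternatives used DESeq2 1.42.0 and limma 3.58.1. Nearest features were the 3 with the smallest distance per CYP2C feature, with an average log2 CPM of at least 0, leaving out uncharacterised names; of each list, up to 4 called members with the smallest p are named, and others named were chosen after their values were seen. The features and lists were chosen with earlier results of these data known. Of the 6 CYP2C names chosen, 2 are not reported here; they stayed in the fits over all features and are in none of the sums, shares, lists or nearest features given. The script was tested on simulated data.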

Additional observations from a re-analysis of the deposited data

Results flagged for a closer look

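The high dose effect of both CYP2C names analysed in the 2 species differed between them by a test of the difference itself: JQ minus DCCO was 5.25 for CYP2C19 and 5.04 for CYP2C19-like on the log2 scale, both called by edgeR. The values of each feature in each dose group gave 18 sets of 4 or 5 livers. In none of these sets did a liver stand far from the rest by Dixon's criterion, where chance gives about 1 in 20 for a single set. The sets of different features hold the same livers and are not independent.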

How the results depend on the processing

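Under every alternative run, the 3 CYP2C features that passed the filter in every group were called in JQ at the high dose against control and against medium dose, and so was CYP2C23B, which entered only through the high dose group. Under the same alternatives, 0 of 4 were called at the medium dose against control, 0 of 2 in each DCCO comparison, and 2 of 2 for the species difference. For high dose over control in JQ the log2 fold changes ranged over all alternatives from 9.64 to 10.41 (CYP2C23B), 4.75 to 5.25 (CYP2C19), 4.81 to 5.26 (CYP2C19-like) and 4.70 to 5.23 (CYP2C18).

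Values near 0 that were not called changed sign in some fits; the cause was not tested. In JQ at medium dose over control, limma voom gave -0.019 for CYP2C18, and leaving out high replicate 1 and medium replicate 5, chosen after seeing the data for kidney markers and for 3 gut markers, although the gut sum of medium replicate 5 (36.4 CPM) lay within that of the other livers, gave -0.047 for CYP2C19 and -0.054 for CYP2C18. Leaving out 1 liver in turn gave -0.38 to 0.28 for CYP2C19, -0.26 to 0.45 for CYP2C19-like and -0.32 to 0.42 for CYP2C18. In DCCO, it gave -0.29 to 0.095 (CYP2C19-like) for high dose over control. For medium dose over control it gave -0.34 to 0.087 (CYP2C19) and -0.35 to 0.037 (CYP2C19-like), and for high over medium dose -0.043 to 0.11 (CYP2C19-like). Leaving out the 2 DCCO libraries with number 6 in their column name gave 0.10 for CYP2C19-like at high dose over control and 0.036 at medium dose over control.

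Replicate numbers are shared by the groups. Correlations of same-numbered deviations ran from -0.12 to 0.15 in JQ and from -0.12 to 0.39 in DCCO. A sample correlated best with its own number in another group in 6 of 30 cases in JQ and 11 of 22 in DCCO. In DCCO all 5 same-numbered correlations of high with medium dose were positive, at 0.089 to 0.32. What lies behind this in DCCO was not tested. The numbers belong to different embryos and were not taken as pairs. With a replicate block, which drops the unnumbered DCCO control, no CYP2C call changed. CYP2C19, CYP2C19-like and CYP2C18 were called in JQ at the high dose against control, beside 416 of all features in either direction. CYP2C23B, which entered only through the high dose group, was called there too, as a description. At the JQ medium dose against control 0 were called, as of all features, and 0 in DCCO.

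Counts of all called features moved more. For JQ high dose against control, 531 became 974 with DESeq2, 250.0 without high replicates 1 and 5 (chosen after seeing the data), and 303 to 659 leaving out 1 liver in turn (lowest without control replicates 1, 2 and 4 and high replicate 5, at 347 or fewer); for JQ high against medium dose, 282 became 614 with DESeq2, 128 with only the 2 groups fitted, 187 with the block, 169 without high replicates 1 and 5 and 166 to 391 leaving out 1 liver (181 or fewer without medium replicates 2, 3, 4 or 5 or high replicate 3). JQ medium dose against control went to 6 with DESeq2. For DCCO high dose against control, 5 became 3 without a filter, 62 with DESeq2, 2 with only the 2 groups, 2 with the block, 16 without the 2 libraries with number 6, and 2 to 14 leaving out 1 liver. For DCCO medium dose against control, 7 became 54 with DESeq2 and 6 to 16 leaving out 1 liver, and for DCCO high against medium dose, 0 became 4 with DESeq2, 1 with the block and 0 to 1 leaving out 1 liver. Depth limits CYP2C23B in JQ controls, where 2 of the 5 libraries hold no read.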
